A study of Mus musculus with 39 samples.

Results

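Sox10, Foxd3, Erbb3, Cdh19, Fabp7, Apod, Gfap and S100b, genes that mark Schwann cells and the glial lineage of the neural crest, were followed through all 39 libraries of the study. They were chosen by gene symbol, with no measured value in the rule, and are 8 of the 20333 genes in the counts table, each represented by 1 transcript. Sox10 and Foxd3 encode transcription factors of the neural crest and its glia, Erbb3 the receptor by which Schwann cells sense neuregulin, and Cdh19 a cadherin of Schwann cell precursors. Fabp7 encodes a fatty acid binding protein of radial and immature glia, Apod a lipocalin secreted by glia and fibroblasts, Gfap the glial intermediate filament and S100b a calcium-binding protein of glia.

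Schwann cells arise from the neural crest through Schwann cell precursors, which travel along nerves and also give rise to chromaffin cells and melanocytes. Their survival depends on neuregulin from axons, received by a dimer of Erbb3 with Erbb2, and their identity on Sox10. In neuroblastoma, a tumor of the sympathoadrenal lineage, Schwann cells make up the stroma of the more mature tumor types.

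The samples were tumors of 20 TH-MYCN mice, in which the tyrosine hydroxylase promoter drives MYCN in the sympathetic lineage. There were 5 mice in each of 4 groups, all of which share the transgene, namely a defined control diet (control), the control diet with difluoromethylornithine, an inhibitor of ornithine decarboxylase (DFMO), a diet lacking proline and arginine (diet), and that diet with DFMO (combination). Within an assay each library is from a different mouse, and dose, duration, age and sex are not given in the labels. Ribosome footprints, the mRNA fragments protected by ribosomes, were sequenced for all 20 mice, and RNA of the same extracts for 19. No RNA library is listed for control mouse CD_5840. Mice are named as in the labels, where CD is the control diet and Proargdrop the diet lacking proline and arginine. The comparisons with control share the control libraries. Per the labels the cell type is Neuroblast and the genotype MYCN Amplified, but extracts of tumor tissue were measured, so that fewer cells of a type and less RNA per cell cannot be told apart.

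Footprint libraries held about 2137840 to 12409600 counts and RNA libraries 10005400 to 51538200 counts. RNA of control mice CD_5696, CD_5778 and CD_5781 and of diet mouse Proargdrop_5828 was of low complexity, with 8806 to 13387 transcripts detected against 14977 to 16317 in the other 15 RNA libraries. A gene can be at 0 there for lack of complexity, and control mouse CD_5812 is the only complex control RNA library. Libraries were also compared across 11847 genes by their departures from the mean of their assay. The RNA of DFMO mice CD_DFMO_135 and CD_DFMO_5823 correlated with their own footprints at r = -0.03 and r = -0.07, and lay closest to the footprints of DFMO mouse CD_DFMO_5747, at r = 0.57 and r = 0.62. The RNA of DFMO mouse CD_DFMO_5806 was closest to the footprints of CD_DFMO_5747 as well, at r = 0.33 against 0.19 for its own. The RNA of combination mouse Proargdrop_DFMO_5732 was closest to the footprints of mouse Proargdrop_DFMO_5825, at r = 0.68 against 0.18 for its own. Labels were used as given, and whether RNA libraries were exchanged was not tested. Called changes are given again without the low-complexity libraries, or without the RNA of CD_DFMO_135, CD_DFMO_5823 and Proargdrop_DFMO_5732, where the call is lost, and as counts for the rest; without the former, CD_5812 is the lone control and is assumed to vary like the other groups. Adrenergic neuroblast markers, which fit the labelled cell type, were high in each group, with the 12 of them summing to 1364 to 1834 CPM in control footprints, 1415 to 1654 CPM on the diet, 1469 to 1732 CPM under DFMO and 1469 to 2173 CPM in the combination. CPM are counts scaled to a common total within an assay.

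The promoters of Fabp7, Apod and Gfap are shown because their RNA was far higher under DFMO than in controls, and that of S100b because its RNA was not. Each is the stretch upstream of the start of transcription from RefSeq on GRCm38.p6, written on the strand of the gene, where 5 of the 8 genes matched. Capitals mark ACAANG, the core that SOX factors such as Sox10 bind, searched on both strands without overlap with any other motif. It stands in 3 of these 5 promoters and in 36.3% of 32851 promoters of 250 bases (the Fabp7 stretch has 208). The match in Apod begins 84 bases before the start, that in Fabp7 lies farther upstream, and in S100b the match is on the other strand, at the far end. The stretches of Gfap and Foxd3 hold no match, which says nothing of the factor.
Fabp7, chr10:57784673-57784880, plus strand: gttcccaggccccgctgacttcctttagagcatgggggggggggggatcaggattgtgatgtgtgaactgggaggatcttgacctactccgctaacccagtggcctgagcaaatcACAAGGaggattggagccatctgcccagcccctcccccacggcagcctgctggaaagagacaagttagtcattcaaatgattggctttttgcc
Apod, chr16:31314809-31315058, minus strand: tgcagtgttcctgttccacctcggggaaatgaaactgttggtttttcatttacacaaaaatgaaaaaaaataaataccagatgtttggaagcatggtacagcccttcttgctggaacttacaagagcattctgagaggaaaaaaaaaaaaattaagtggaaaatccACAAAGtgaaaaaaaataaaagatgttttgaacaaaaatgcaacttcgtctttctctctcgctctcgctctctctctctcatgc
Gfap, chr11:102897201-102897450, minus strand: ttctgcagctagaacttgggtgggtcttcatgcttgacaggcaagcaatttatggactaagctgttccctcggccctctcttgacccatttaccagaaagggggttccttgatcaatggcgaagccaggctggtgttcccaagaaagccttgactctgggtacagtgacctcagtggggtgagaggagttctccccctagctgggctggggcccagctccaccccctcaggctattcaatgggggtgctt
S100b, chr10:76253586-76253835, plus strand: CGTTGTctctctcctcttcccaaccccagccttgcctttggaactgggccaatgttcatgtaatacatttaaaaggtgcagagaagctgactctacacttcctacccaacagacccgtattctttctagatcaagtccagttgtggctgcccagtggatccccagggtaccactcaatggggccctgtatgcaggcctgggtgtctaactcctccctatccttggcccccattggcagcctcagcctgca

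Under DFMO alone, 7 of the 8 genes were higher in RNA than in controls, several of them from no counts at all, and in the combination 6 of the 8 were lower again than under DFMO. From DFMO to the combination the test called no change of Erbb3 in either assay, and none of S100b in RNA. In footprints, 3 of the 8 genes had enough counts to test, and all 3 rose under DFMO. The diet alone called Apod in RNA and none of the 3 tested in footprints. Over all genes tested, DFMO called 39.5% in RNA and 18.1% in footprints. The diet called 3.4% and 0%, and from DFMO to the combination 5.13% were called in RNA.

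The filter on low counts bears on these counts. All 8 genes passed it in RNA, but Sox10, Foxd3, Gfap and Cdh19 passed through the DFMO libraries and would not pass without them. In footprints Fabp7, Apod and Erbb3 passed, and Fabp7 would not pass without the DFMO libraries. The footprint counts of Sox10, Foxd3, Gfap, Cdh19 and S100b are given as values.

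**Figure D1:**
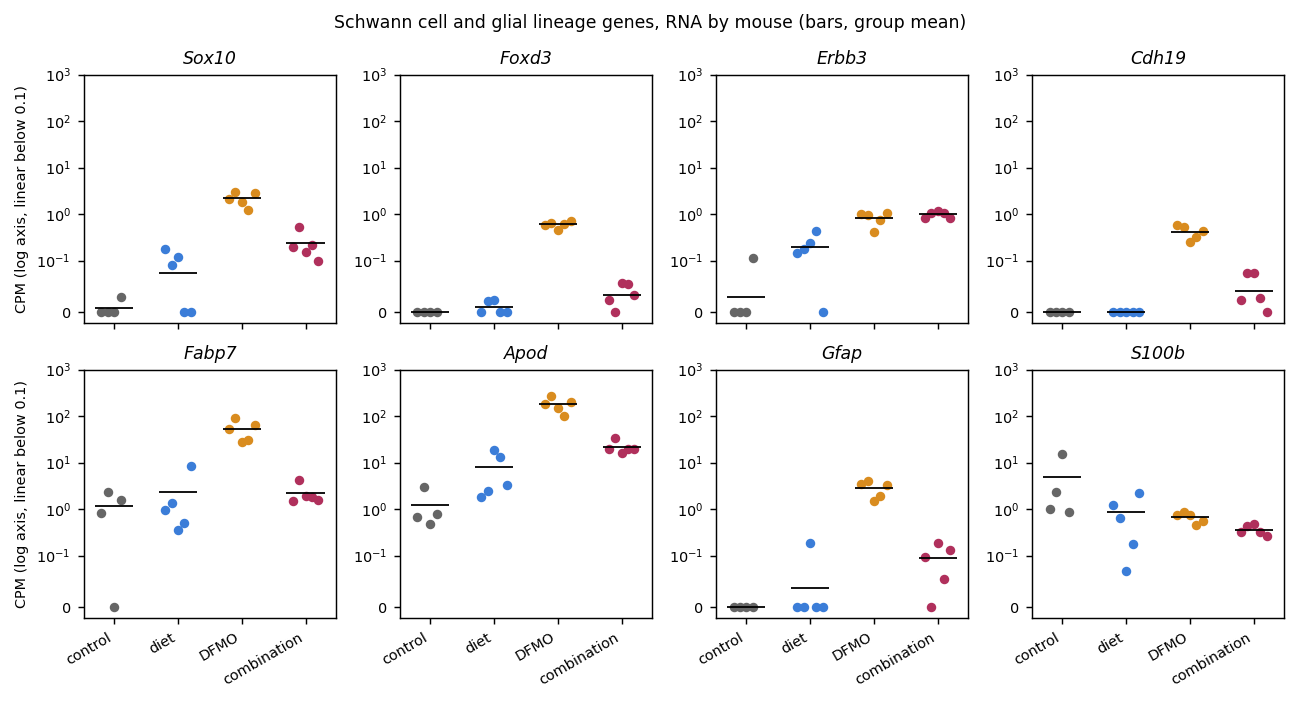
RNA level of each gene in CPM on a log axis (linear below 0.1) by group, 1 point per mouse, with 4 control mice and 5 in each other group, and bars at the group mean. The DFMO mice lie above every other mouse for Sox10, Foxd3, Cdh19, Fabp7, Apod and Gfap, while Erbb3 is as high in the combination and S100b is highest in control mouse CD_5781.

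Sox10, the factor on which the glial lineage depends (chromosome 15, 79154908 to 79165240, minus strand, coordinates here and below from GENCODE M21 on GRCm38), had 0 RNA counts in 3 control libraries and 1 count, 0.029 CPM, in mouse CD_5812. Under DFMO its RNA stood at 1.23, 1.82, 2.08, 2.90 and 3.00 CPM, on the diet at 0, 0, 0.0908, 0.118 and 0.175 CPM, and in the combination at 0.0997, 0.151, 0.196, 0.216 and 0.532 CPM. The DFMO mice lie above all others, and the combination mice lie between them and the controls. With a single control count, the pooled DFMO to control ratio was 142 with a 95% counting interval of 25.4 to 5624, and the fit gave a log2 change of 6.89 ± 0.96 (SE; edgeR adjusted p = 8.86e-05). Between combination and control the change was 3.70 ± 1.07 (edgeR adjusted p = 0.0102), and 2.91 (edgeR adjusted p = 0.148) without the low-complexity libraries. From DFMO to the combination Sox10 RNA fell by 3.18 ± 0.54 on the log2 scale (edgeR adjusted p = 0.000983), and by 2.99 (edgeR adjusted p = 0.0869) without the RNA of CD_DFMO_135, CD_DFMO_5823 and Proargdrop_DFMO_5732.

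Sox10 footprints were few, 201 counts in all 20 libraries. They stood at 0.385, 1.24, 1.45, 3.71 and 8.0 CPM under DFMO, where mouse CD_DFMO_5747 was highest and CD_DFMO_5806 lowest, and at 0 to 1.30 CPM in controls, so that the groups overlap. In the combination they stood at 0.197 to 1.71 CPM, level with 3 of the 5 DFMO mice. The pooled DFMO to control ratio was 5.49 (95% counting interval 2.80 to 12.3), and that of combination to DFMO 0.402 (0.285 to 0.561). These intervals cover counting error only, not the spread between mice.

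Foxd3, an early neural crest factor that is kept in Schwann cell precursors (chromosome 4, 99656299 to 99658622, plus strand, 1 exon), had 0 RNA counts in all 4 controls. In mouse CD_5812 a count of 0 allows up to 0.0871 CPM (3 counts). Under DFMO it stood at 0.464, 0.577, 0.606, 0.633 and 0.711 CPM, the tightest of the 8 genes, and in the combination at 0 to 0.0565 CPM with no overlap. DFMO was 12.5-fold higher than control with 3 counts allowed over the control group, most of whose libraries are of low complexity. The exact counting interval of this ratio began lower, at 10.0-fold. The fitted log2 change, which is no bound, was 7.43 ± 1.19 (edgeR adjusted p = 0.000356). The combination was lower than DFMO by -3.99 ± 0.59 (log2; edgeR adjusted p = 0.000437), and by -3.82 (edgeR adjusted p = 0.0454) without the RNA of CD_DFMO_135, CD_DFMO_5823 and Proargdrop_DFMO_5732. In footprints Foxd3 reached 10.8 CPM in CD_DFMO_5747 and 4.64 CPM in CD_DFMO_5802 but 0.263 CPM in CD_DFMO_5823, whose RNA of 0.711 CPM was the highest. Diet mice Proargdrop_5705 and Proargdrop_5828 had 2.22 and 2.63 CPM of Foxd3 footprints beside 0.0227 and 0 CPM of RNA.

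Cdh19, the cadherin of Schwann cell precursors (chromosome 1, 110888326 to 110977363, minus strand), had no RNA count in any control or diet mouse. It stood at 0.250, 0.314, 0.427, 0.525 and 0.577 CPM under DFMO and at 0 to 0.076 CPM in the combination, with no overlap. DFMO was 8.65-fold above control with 3 counts allowed over the group. The exact counting interval of this ratio began lower, at 6.92-fold. The fitted log2 change, which is no bound, was 6.91 ± 1.36 (edgeR adjusted p = 0.00193). The combination lay below DFMO by -3.18 ± 0.64 (log2; edgeR adjusted p = 0.00868) and above the diet group, with 9 counts against 0 (edgeR adjusted p = 0.041), a call that was lost when any 1 of the 5 diet mice, or any of 4 combination mice, was left out. Without the RNA of CD_DFMO_135, CD_DFMO_5823 and Proargdrop_DFMO_5732 Cdh19 did not pass the filter. Its footprints were detected where its RNA was not, at 0.324 to 1.01 CPM in all 5 diet mice and up to 1.37 CPM in controls. Under DFMO they stood at 0.395, 1.36, 2.69, 2.97 and 5.24 CPM, highest in CD_DFMO_5747.

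Erbb3, the neuregulin receptor (chromosome 10, 128567523 to 128589652, minus strand, 28 exons), kept its level in the combination. Its RNA was at 0 in the 3 low-complexity controls and at 0.116 CPM in CD_5812. It stood at 0.411, 0.741, 0.973, 1.00 and 1.07 CPM under DFMO and at 0.831, 0.834, 1.04, 1.05 and 1.17 CPM in the combination, ranges that overlap and both lie above every control. The change was 3.85 ± 0.76 under DFMO (edgeR adjusted p = 0.00102) and 4.08 ± 0.76 in the combination (edgeR adjusted p = 0.000596), or 2.82 (edgeR adjusted p = 0.0261) and 3.04 (edgeR adjusted p = 0.0186) against CD_5812 alone. Without CD_5812, where all control counts are, these changes became 7.92 and 8.15. From DFMO to the combination the difference was 0.23 ± 0.47 (edgeR adjusted p = 0.907).

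Erbb3 was also the gene for which both assays gave a call in the combination. Its footprints stood at 3.02, 3.42, 3.92, 4.0 and 4.14 CPM in the combination, above every control (0 to 2.29 CPM) and every diet mouse (0.601 to 1.02 CPM). The rise was 1.67 ± 0.54 against control (log2; edgeR adjusted p = 0.0212) and 2.17 ± 0.52 against diet (edgeR adjusted p = 0.00371), and the first was lost without control mouse CD_5781 (1.40, edgeR adjusted p = 0.0509) or CD_5812 (1.53, edgeR adjusted p = 0.0543). Under DFMO alone the footprints were as high on average but spread, at 1.45, 1.67, 3.39, 7.61 and 9.78 CPM (2.04 ± 0.53, edgeR adjusted p = 0.0114).

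Fabp7, the fatty acid binding protein of immature glia (chromosome 10, 57784881 to 57788450, plus strand), had RNA that stood at 28.4, 31.1, 54.1, 63.1 and 91.7 CPM under DFMO, against 0, 0.828, 1.60 and 2.33 CPM in controls. In the combination it was back at 1.50, 1.56, 1.84, 1.90 and 4.23 CPM, above 4 diet mice (0.355 to 1.38 CPM) and below the low-complexity library of Proargdrop_5828 (8.44 CPM). Against diet the change was 0.12 (edgeR adjusted p = 0.933), and 1.43 ± 0.47 (edgeR adjusted p = 0.0256) without the low-complexity libraries. DFMO raised it by 5.34 ± 0.86 (log2; edgeR adjusted p = 0.00028), or 5.07 (edgeR adjusted p = 0.00336) against CD_5812 alone. The combination differed from control by 0.74 ± 0.75 (edgeR adjusted p = 0.439) and lay below DFMO by -4.60 ± 0.73 (edgeR adjusted p = 0.00053), or -4.39 (edgeR adjusted p = 0.0349) without CD_DFMO_135, CD_DFMO_5823 and Proargdrop_DFMO_5732.

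Fabp7 footprints under DFMO stood at 33.8 CPM in CD_DFMO_5747 and 13.0 CPM in CD_DFMO_5802, but at 2.37, 3.05 and 3.85 CPM in CD_DFMO_5823, CD_DFMO_135 and CD_DFMO_5806, against 0 to 1.24 CPM in controls. All 5 lie above the controls, and the rise was 4.22 ± 0.89 (log2; edgeR adjusted p = 0.00439). Fabp7 passed the footprint filter through the DFMO libraries, which bears on this test. In the combination they stood at 0.395 to 3.42 CPM, overlapping both groups. The combination was lower than DFMO by -2.62 ± 0.66 (edgeR adjusted p = 0.0354), and by -1.57 (edgeR adjusted p = 0.0756) without CD_DFMO_5747. This call was also lost, at adjusted p of 0.0608 to 0.106, without DFMO mouse CD_DFMO_5802 (-2.57) and without combination mouse Proargdrop_DFMO_5746 (-2.61), Proargdrop_DFMO_5805 (-2.64) or Proargdrop_DFMO_5825 (-2.41).

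Apod, the secreted lipocalin (chromosome 16, 31296192 to 31314808, minus strand), was the most abundant of the 8 genes in DFMO tumors. Its RNA stood at 102, 152, 178, 202 and 266 CPM under DFMO, against 0.487, 0.662, 0.784 and 3.01 CPM in controls, and at 16.5, 19.8, 19.9, 19.9 and 33.7 CPM in the combination. The 3 groups do not overlap. The rise was 7.14 ± 0.77 under DFMO (log2; edgeR adjusted p = 1.33e-05) and 4.10 ± 0.69 in the combination (edgeR adjusted p = 0.000328), or 7.84 (edgeR adjusted p = 0.00825) and 4.78 (edgeR adjusted p = 0.0371) against CD_5812 alone. From DFMO to the combination the change was -3.03 ± 0.56 (edgeR adjusted p = 0.00182), or -2.94 (edgeR adjusted p = 0.071) without CD_DFMO_135, CD_DFMO_5823 and Proargdrop_DFMO_5732. On the diet Apod RNA ranged from 1.84 to 18.8 CPM and was called higher than control (2.65 ± 0.66, edgeR adjusted p = 0.0391), a call lost in 12 of the 19 fits that leave out 1 mouse. It was also lost without the RNA of CD_DFMO_135, CD_DFMO_5823 and Proargdrop_DFMO_5732 (2.65, edgeR adjusted p = 0.115). Without the low-complexity libraries, which leaves CD_5812 as the lone control, the change was 3.54 and the call was lost as well.

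Apod footprints spread more than its RNA. They stood at 13.3, 15.6, 28.0, 98.4 and 244 CPM under DFMO, with CD_DFMO_5747 highest and CD_DFMO_5823 and CD_DFMO_135 lowest, and at 1.01 to 18.3 CPM in controls, with which the lowest 2 overlap. The rise was 3.43 ± 0.89 (log2; edgeR adjusted p = 0.0158), and 2.37 without CD_DFMO_5747. In the combination they stood at 10.7, 14.2, 18.6, 20.6 and 33.5 CPM, within the range of the diet mice (2.10 to 29.2 CPM) except for Proargdrop_DFMO_5736. The combination differed from control by 1.42 ± 0.90 (edgeR adjusted p = 0.242) and from DFMO by -2.01 ± 0.76 (edgeR adjusted p = 0.166).

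Gfap, the glial filament that non-myelinating and immature Schwann cells share with astrocytes (chromosome 11, 102887336 to 102897131, minus strand), had no RNA count in any control and 8 counts in 1 diet mouse (Proargdrop_5784, 0.189 CPM). Under DFMO it stood at 1.46, 1.89, 3.24, 3.44 and 4.09 CPM, and in the combination at 0, 0.0541, 0.0981, 0.133 and 0.188 CPM. DFMO was 59.5-fold above control with 3 counts allowed over the control group. The exact counting interval of this ratio began lower, at 48.3-fold. The fitted log2 change, which is no bound, was 9.66 ± 1.61 (edgeR adjusted p = 0.00047). The combination was lower than DFMO by -4.82 ± 0.79 (log2; edgeR adjusted p = 0.00104), and by -4.64 (edgeR adjusted p = 0.0801) without CD_DFMO_135, CD_DFMO_5823 and Proargdrop_DFMO_5732. Footprints numbered 61 in CD_DFMO_5747 (6.03 CPM), 18 in CD_DFMO_5802 (3.34 CPM) and 9 in CD_DFMO_5806 (1.15 CPM) but 2 in CD_DFMO_135 and 0 in CD_DFMO_5823, whose RNA was at 3.44 and 3.24 CPM. All other libraries together held 8 Gfap footprints.

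S100b (chromosome 10, 76253853 to 76261159, plus strand) went the other way from the rest in RNA. It stood at 0.871, 0.994, 2.33 and 15.6 CPM in controls, 0.449 to 0.880 CPM under DFMO and 0.266 to 0.471 CPM in the combination. The groups of DFMO and control overlap, and control mouse CD_5781, a low-complexity library, is far above the rest. DFMO lowered it by -2.75 ± 0.80 (log2; edgeR adjusted p = 0.0109), by -1.0 (edgeR adjusted p = 0.238) without CD_5781, by -0.35 (edgeR adjusted p = 0.809) against CD_5812 alone and by -2.78 (edgeR adjusted p = 0.0721) without the RNA of CD_DFMO_135, CD_DFMO_5823 and Proargdrop_DFMO_5732. In the combination the fall was -3.64 ± 0.83 (edgeR adjusted p = 0.00242), or -1.90 (edgeR adjusted p = 0.033) without CD_5781 and -1.26 (edgeR adjusted p = 0.3) against CD_5812 alone. In footprints S100b had 18 counts in all, 0 of them in controls, 7 under DFMO and 10 in the combination, where each of the 5 mice had at least 1.

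Counted together, DFMO called 8 of the 8 genes in RNA, 7 up and S100b down, where 39.5% of all 14280 genes tested were called. Sox10, Foxd3, Gfap and Cdh19 passed the filter through the DFMO libraries and had to differ, so the 8 are not to be read against that share; of the other 4, Fabp7, Apod and Erbb3 rose and S100b fell. The median log2 change of the 8 was 6.90, or 4.59 with 3 control counts allowed for each of Gfap, Foxd3 and Cdh19. Over all genes it was 0.28, a median that another scaling (RLE) puts at 0.41. Since 4 of the 8 passed through the DFMO libraries, these medians are not to be read against each other either. Without the low-complexity libraries the same 7 rose (edgeR adjusted p 0.00336 to 0.0319), and without the RNA of CD_DFMO_135, CD_DFMO_5823 and Proargdrop_DFMO_5732 6 of 7 tested did (0.000549 to 0.0175). In footprints 3 of 3 tested rose, with 18.1% of 12095 genes called. Fabp7 passed there through the DFMO libraries, so this count is not to be read against that share either. The diet alone called Apod in RNA (3.4% of genes called), and 0 of 3 in footprints (0% called by edgeR, with 1312 genes at an unadjusted p under 0.05, and 102 called by DESeq2, none of the 3 among them). The combination called 4 of 8 in RNA against control, with Erbb3, Apod and Sox10 up and S100b down (40.8% of genes called), and 1 of 3 in footprints (32.2% called). Its RNA median against control was 3.72, or 0.90 with 3 control counts allowed for each of Gfap, Foxd3 and Cdh19. The median over all genes was 0.31 (0.48 with RLE), a comparison limited by the same 4 genes that passed through the DFMO libraries.

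Against the diet alone, the combination was higher for Erbb3 and Cdh19 in RNA (17.7% of genes called) and for Erbb3 in footprints (28.8% called). For the comparison with DFMO alone, Sox10, Foxd3, Gfap and Cdh19 in RNA and Fabp7 in footprints passed the filter through the DFMO libraries. Counts in it are thus not to be read against the shares of all genes. Fabp7 and Apod pass without those libraries in RNA. Against DFMO alone, the combination was lower for 6 of 8 genes in RNA, in a comparison that called 5.13% of all genes and 2.07% downward. In footprints it was lower for 1 of 3, Fabp7 (3.22% called). This RNA count was also 6 without the low-complexity libraries, which are in neither group, and 2 of 7, Fabp7 and Foxd3, without the RNA of CD_DFMO_135, CD_DFMO_5823 and Proargdrop_DFMO_5732. The log2 changes of those no longer called were -2.94 to -4.64, and that fit called 89 genes in all against 733.

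The effect of DFMO on RNA differed with the diet for 4 of 8 genes (5.94% of genes called). Sox10, Foxd3, Gfap and Cdh19 passed the filter through the DFMO libraries, so this count is not to be read against that share. The interaction was -5.22 ± 1.05 for Fabp7 (log2; edgeR adjusted p = 0.0094), -5.69 ± 0.86 for Apod (edgeR adjusted p = 0.00239), -5.52 ± 1.23 for Sox10 (edgeR adjusted p = 0.015) and -8.71 ± 2.20 for Gfap (edgeR adjusted p = 0.0304). In each case DFMO raised the gene more on the control diet than on the diet without proline and arginine. The Gfap value rests on the 8 counts of diet mouse Proargdrop_5784, without which it was -4.82 (edgeR adjusted p = 1). Without the RNA of CD_DFMO_135, CD_DFMO_5823 and Proargdrop_DFMO_5732 only Apod was called. Fabp7 was then at -5.08 (edgeR adjusted p = 0.104), Sox10 at -5.31 (edgeR adjusted p = 0.133) and Gfap at -8.45 (edgeR adjusted p = 0.173). In footprints the interaction was called for 0 of 3 genes (0.372% of genes called, 1608 at an unadjusted p under 0.05, and 127 by DESeq2), with -3.25 ± 1.29 for Fabp7 and -3.12 ± 1.19 for Apod.

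**Figure D2:**
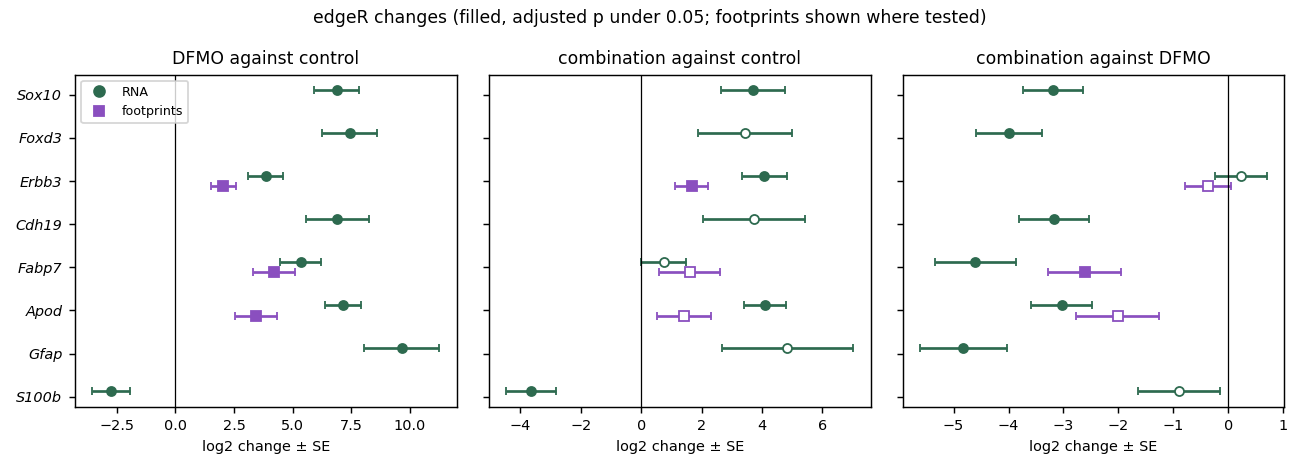
Log2 change ± SE of each gene in 3 comparisons, in RNA (circles) and, for the 3 genes tested there, in footprints (squares), filled where the edgeR adjusted p was under 0.05. Under DFMO all tested genes but S100b lie to the right of 0, and from DFMO to the combination Erbb3 alone lies near 0 in both assays. Values against control of Gfap, Foxd3 and Cdh19, at 0 counts there, are fitted values and no bounds.

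The assays disagreed most under DFMO. The summed level of the 8 genes ran from 138 to 367 CPM in DFMO RNA, a 2.66-fold range, but from 19.2 to 318 CPM in the footprints of the same mice, a 16.6-fold range. In the combination both assays gave like sums, 20.5 to 40.03 CPM in RNA and 18.7 to 45.0 CPM in footprints. Mouse CD_DFMO_5747 was highest in both assays under DFMO, and its RNA and footprints correlated best of all DFMO mice, at r = 0.73. Mice CD_DFMO_135 and CD_DFMO_5823 had high RNA of these genes and the lowest footprints. RNA closest to the footprints of CD_DFMO_5747 was found in both, and in CD_DFMO_5806, whose summed RNA of 138 CPM was the lowest of the group.

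**Figure D3:**
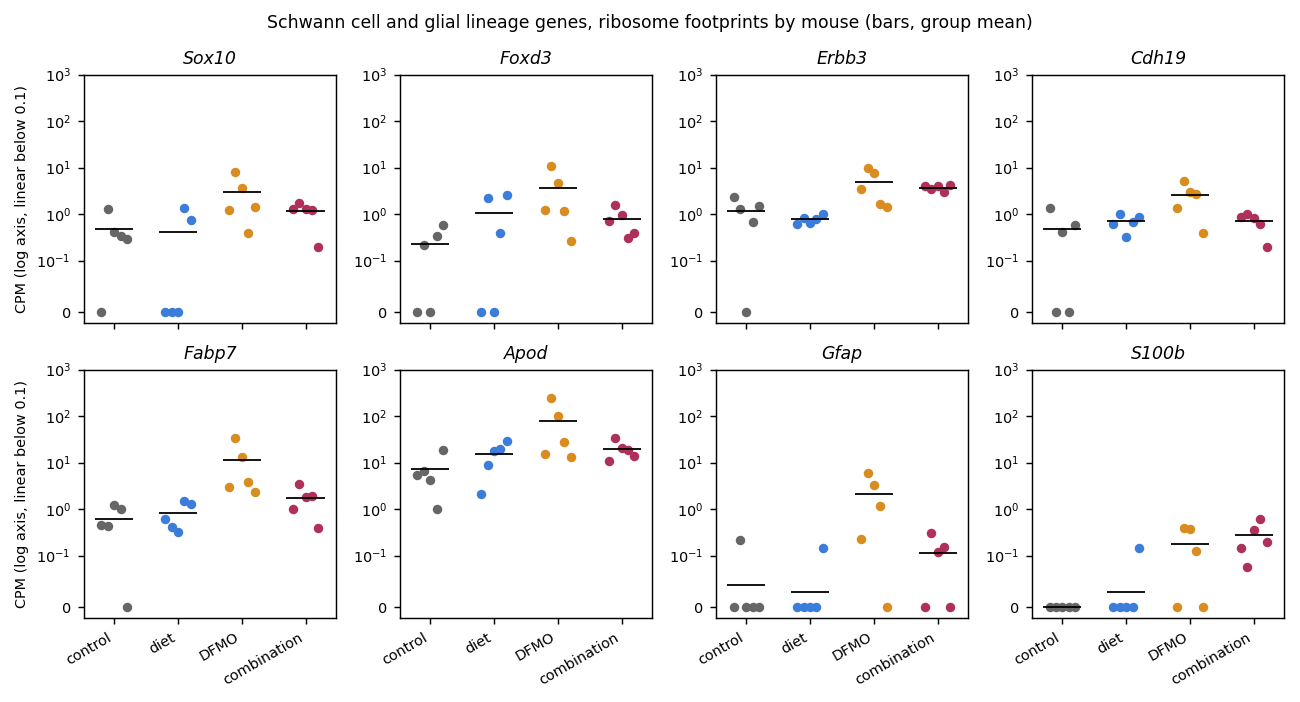
Footprint level of each gene in CPM on a log axis (linear below 0.1) by group, 1 point per mouse with 5 mice per group, and bars at the group mean. DFMO mice spread over more than a 10-fold range for Fabp7, Apod and Sox10, while the combination mice lie close together for Erbb3, at 3.02 to 4.14 CPM.

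The ratio of footprint CPM to RNA CPM under the same mouse label was taken where both assays had at least 10 counts, a rule that leaves out mice with few footprints. For Fabp7 it was 0.0375 to 0.457 under DFMO (5 mice), 0.124 to 0.457 without CD_DFMO_135 and CD_DFMO_5823, and 0.807 to 1.07 in the combination (3 mice). For Apod it was 0.0657 to 0.920 under DFMO and 0.538 to 1.25 in the combination, 5 mice each, with 0.946 to 8.86 in 4 diet mice. Without CD_DFMO_135 and CD_DFMO_5823 the Apod ratio was 0.275 to 0.920 under DFMO. For Erbb3 it was 1.36 to 18.5 under DFMO and 2.86 to 4.99 in the combination, and the range under DFMO encloses that of the combination. Foxd3 had 2.15 to 17.0 in 3 DFMO mice, Cdh19 2.35 to 11.9 in 4, Sox10 0.499 to 2.67 in 4 and Gfap 1.47 to 2.28 in 2. In CD_DFMO_5823, left out for Foxd3 and Cdh19, footprints were below RNA for both, at 0.263 against 0.711 CPM and 0.395 against 0.427 CPM. Each assay is scaled to its own totals.

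**Figure D4:**
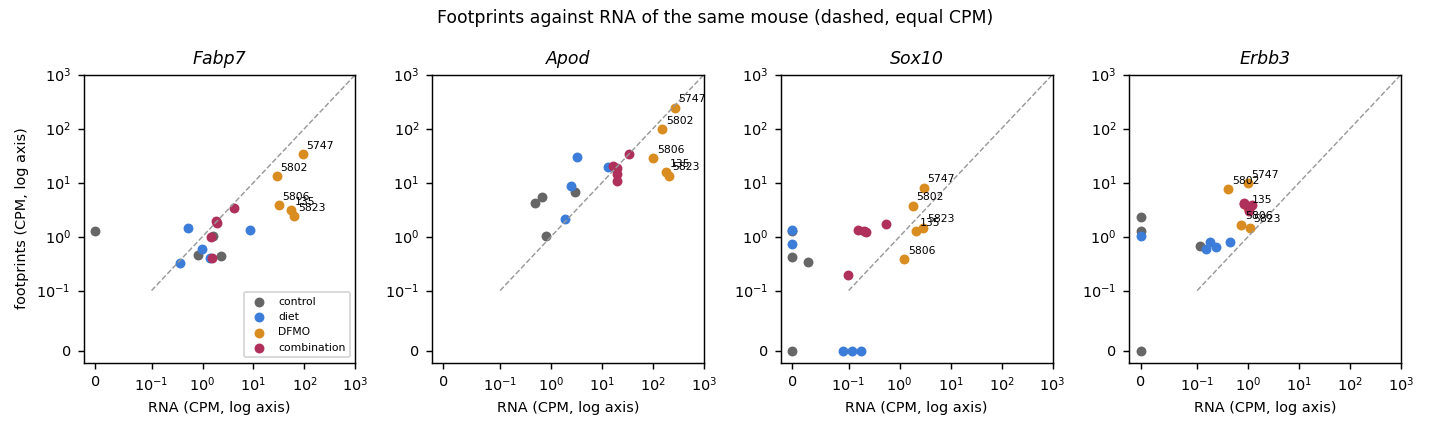
Footprints against RNA of the same mouse in CPM, both on log axes that are linear below 0.1, for Fabp7, Apod, Sox10 and Erbb3 in 19 mice, with DFMO mice numbered and a dashed line at equal CPM. DFMO mice CD_DFMO_135 and CD_DFMO_5823 have Fabp7 RNA of 54.1 and 63.1 CPM against 91.7 CPM in CD_DFMO_5747, but Fabp7 footprints of 3.05 and 2.37 CPM against 33.8 CPM.

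Tested as efficiency, footprints relative to RNA in a single fit of both assays, Apod was lower under DFMO than in controls by -3.61 ± 1.11 (log2; edgeR adjusted p = 0.0136), 1 of 3 genes tested, with 31.3% of genes called. The control RNA in that ratio is mostly of low complexity, and without those libraries the value was -4.42 (edgeR adjusted p = 0.118). With the unpaired mouse left out, 38 libraries gave -2.89 (edgeR adjusted p = 0.0504), and -3.63 (edgeR adjusted p = 0.00693) with the mouse as a replicate block. The diet called 0 of 3 (4.76% of genes called; 2965 at an unadjusted p under 0.05, and 1836 by DESeq2). The combination called 0 of 3 as well (27.8% of genes called), with -2.58 ± 1.10 for Apod (edgeR adjusted p = 0.0749) and -2.22 ± 0.95 for Erbb3 (edgeR adjusted p = 0.0735), both called by DESeq2. The Erbb3 value in the combination was -5.86 (edgeR adjusted p = 0.0129) without control mouse CD_5812, and -1.37 without the low-complexity libraries. Without CD_5812 Erbb3 was also called lower under DFMO (-5.29, edgeR adjusted p = 0.027) and on the diet (-5.97, edgeR adjusted p = 0.0258).

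The proportions of the genes within a library also differed between groups. Apod exceeded Fabp7 by 2.90 to 5.34 times in DFMO RNA and by 5.11 to 7.57 times in DFMO footprints, in CPM. In the combination the ratio was 7.96 to 13.3 in RNA and 9.46 to 36.0 in footprints. Apod made up 72.3 to 81.9% of the summed CPM of the 8 genes in DFMO RNA and 80.4 to 87.2% in the combination. In footprints its share overlapped widely, at 59.7 to 76.8% under DFMO and 57.3 to 74.5% in the combination. After the group means were removed, footprints and RNA of a gene correlated over 19 mice at r = -0.26 for Foxd3 to r = 0.43 for Apod (Spearman rho = 0.35), and none of the 8 passed (Apod permutation p = 0.0652, Benjamini-Hochberg adjusted over the 8 p = 0.522; r = 0.40 without the 2 mice farthest from the median). No pooled value is given here, since the mice fall into separate clusters by treatment.

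Per length, in RPKM, reads scaled for coding length and library total, the authors' deposited values put Apod first and Fabp7 second in both DFMO and combination tumors in both assays. In DFMO RNA the medians were 413 RPKM for Apod (232 to 614) and 179 for Fabp7 (78.0 to 303), followed by Gfap at 3.46, S100b at 2.95, Sox10 at 1.95, Foxd3 at 0.558, Erbb3 at 0.317 and Cdh19 at 0.254. Apod and Fabp7 overlap each other in range, Fabp7 lies above the next gene in every mouse, Gfap, S100b and Sox10 overlap, and Foxd3 overlaps Erbb3 at its lower end, and Erbb3 overlaps Cdh19. In control RNA the order was S100b at 3.74, Fabp7 at 2.25 and Apod at 1.13 RPKM, which overlap, with the medians of the other 5 at 0. In control footprints Apod led at 9.85 RPKM, followed by Fabp7 at 1.17 RPKM, with overlapping ranges, and S100b was at 0 in all 5 mice. S100b is thus among the higher of the 8 in control RNA and at 0 in control footprints.

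Other genes of the lineage were counted by list, and the counts stand beside shares of all genes tested. Genes near 0 in controls can pass the filter through the DFMO libraries, which was examined for the 8 genes only. List counts and medians are thus not to be read as an excess over all genes. In DFMO RNA 21.9% of all genes rose and 17.5% fell, and in DFMO footprints 9.24% rose and 8.84% fell. In the combination against control 23.1% rose and 17.7% fell in RNA, and 16.7% and 15.5% in footprints. From DFMO to the combination 3.07% rose and 2.07% fell in RNA. Of 15 further markers of peripheral glia tested in RNA, 11 rose under DFMO, and 8 fell and 1 rose from DFMO to the combination, with medians of 3.26 and -1.38 on the log2 scale beside 0.28 and 0.019 over all genes. Cmtm5, a membrane protein of glia, went from 0 to 0.348 CPM in controls to 3.64 to 12.5 CPM under DFMO and 0.598 to 1.04 CPM in the combination (4.79 ± 0.55 under DFMO, edgeR adjusted p = 2.24e-05). Gpr37l1, a glial receptor, went from 0 to 0.172 CPM to 2.11 to 5.51 CPM and back to 0.166 to 0.595 CPM (5.62 ± 0.73, edgeR adjusted p = 5.56e-05). Art3 was the marker that rose from DFMO to the combination, with 2.65 to 4.91 CPM and 3.77 to 39.2 CPM (2.66 ± 0.64, edgeR adjusted p = 0.0163). In footprints 3 of 10 rose under DFMO and 1 fell, the endothelin receptor Ednrb (-0.96 ± 0.23, edgeR adjusted p = 0.00635), while Ptprz1, a receptor phosphatase of glia, rose by 2.17 ± 0.51 (edgeR adjusted p = 0.00676). In combination RNA 6 rose and 1 fell against control, Ttyh1 rising by 3.27 ± 0.60 (edgeR adjusted p = 0.00058) and Fxyd1 lower by -1.08 ± 0.34 (edgeR adjusted p = 0.0154). In combination footprints 2 rose and 2 fell, with Art3 up by 3.17 ± 0.56 (edgeR adjusted p = 0.000248), and with Ncan (-0.63 ± 0.15, edgeR adjusted p = 0.00344) and Ednrb (-0.70 ± 0.22, edgeR adjusted p = 0.0193) down.

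Of 12 myelin and maturing Schwann cell genes tested in RNA, 5 rose under DFMO, none fell, and 4 fell from DFMO to the combination. Over all genes in RNA, 21.9% rose and 17.5% fell under DFMO, and 2.07% fell from DFMO to the combination. Against control, 23.1% rose and 17.7% fell in combination RNA, and 9.24% rose and 8.84% fell in DFMO footprints. Dhh, the hedgehog ligand of Schwann cells, was at 0 in all controls, at 0.286 to 1.14 CPM under DFMO and at 0 to 0.123 CPM in the combination. Pmp22, a myelin protein also made by fibroblasts, rose in the combination in both assays, by 2.99 ± 0.68 in RNA (edgeR adjusted p = 0.00236) and 0.63 ± 0.17 in footprints (edgeR adjusted p = 0.00672). Against control it was the 1 gene of this list that rose in combination RNA, and the 1 that fell was Prx, a gene of myelinating Schwann cells (-1.48 ± 0.51, edgeR adjusted p = 0.0256). Of 11 neural crest and precursor genes tested in RNA, 4 rose under DFMO, 3 rose and 1 fell in the combination, and 0 were called from DFMO to the combination. The 1 that fell was Tfap2b, a crest transcription factor (-1.08 ± 0.28, edgeR adjusted p = 0.00584). In footprints 1 of 10 rose and 2 fell under DFMO, the integrin Itga4 by -1.03 ± 0.29 (edgeR adjusted p = 0.0191) and the transcription factor Ets1 by -0.76 ± 0.23 (edgeR adjusted p = 0.028). Ngfr, the low-affinity neurotrophin receptor of crest and precursor cells, was higher in the combination than in controls in footprints (2.48 ± 0.66, edgeR adjusted p = 0.00672), at 1.86 to 10.3 CPM against 0 to 2.35 CPM in overlapping groups, and higher than under DFMO (2.06 ± 0.56, edgeR adjusted p = 0.0432).

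Along the neuregulin pathway, 5 of 10 genes tested in RNA rose under DFMO and none fell, and in the combination 3 rose and 1 fell, the ligand Nrg3 (-3.22 ± 0.86, edgeR adjusted p = 0.00656). Among all genes in RNA, 21.9% rose and 17.5% fell under DFMO, and 23.1% and 17.7% in the combination. The counts were not tested against these shares. The ligand Nrg1 stood at 0 to 0.248 CPM in controls, 0.651 to 1.17 CPM under DFMO (2.86 ± 0.64, edgeR adjusted p = 0.00232) and 0.380 to 0.541 CPM in the combination (1.89 ± 0.65, edgeR adjusted p = 0.0247). The ligand Nrg2 rose by 2.45 ± 0.51 under DFMO (edgeR adjusted p = 0.00148). Bace1, the protease that processes neuregulin, rose in both assays, by 0.57 ± 0.15 in DFMO footprints (edgeR adjusted p = 0.0132) and 0.62 ± 0.15 in the combination (edgeR adjusted p = 0.00338). Erbb2, the partner of Erbb3, rose in DFMO RNA by 1.89 ± 0.66 (edgeR adjusted p = 0.0283). Of 2 repair Schwann cell genes tested, Bdnf, a neurotrophin that neurons make as well, rose under DFMO in footprints (1.27 ± 0.35, edgeR adjusted p = 0.0157) and RNA (1.67 ± 0.47, edgeR adjusted p = 0.00897), while Jun, the transcription factor of the injury response, fell in footprints (-0.32 ± 0.09, edgeR adjusted p = 0.0245).

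**Figure D5:**
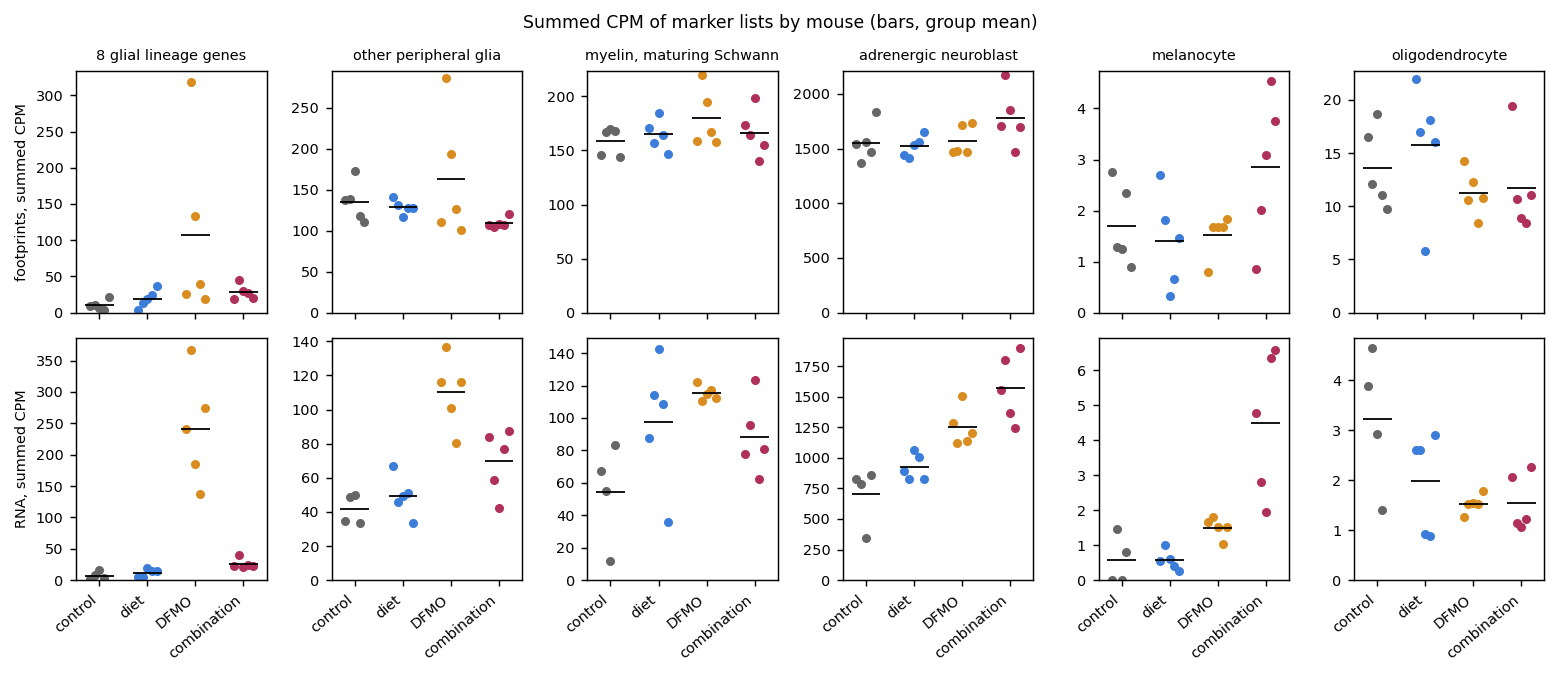
Summed CPM of marker lists by group, footprints above and RNA below, 1 point per mouse and bars at the group mean, each panel on its own axis from 0. The 8 glial lineage genes reach 318 CPM in DFMO footprints and 367 CPM in DFMO RNA, while melanocyte markers reach 6.58 CPM and oligodendrocyte markers 21.9 CPM in any library.

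Markers of cells that share some of these genes were read beside them. The 8 oligodendrocyte markers summed to 1.25 to 1.78 CPM in DFMO RNA against 1.39 to 4.65 CPM in controls, with 2 or 3 of 8 detected per library, and Olig2, Mobp, Ermn and Nkx2-2 were at 0 in every DFMO library of both assays. The 7 astrocyte markers summed to 5.12 to 6.16 CPM in DFMO RNA, 0 to 5.38 CPM in controls and 9.61 to 16.2 CPM in the combination, and Aqp4 was at 0 in all DFMO libraries. The 8 melanocyte markers summed to 1.03 to 1.79 CPM in DFMO RNA, 0 to 1.46 CPM in controls and 1.96 to 6.58 CPM in the combination, with 4 to 7 of 8 detected per DFMO RNA library. The pigment cell gene Oca2, at 0 in all controls, stood at 0.0893 to 1.03 CPM in DFMO RNA (edgeR adjusted p = 0.00596) and 0.659 to 5.49 CPM in the combination (edgeR adjusted p = 0.00061). Tyr, Tyrp1 and Dct were at 0 in all DFMO footprints, and Dct had RNA counts in 4 DFMO libraries. In neither assay was the highest library of any of these 3 sums a DFMO library.

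Markers of other cell types were called under DFMO as well, to be read beside the shares of all genes called, 39.5% in RNA and 18.1% in footprints. Of 18 neuron and ganglion cell markers, 13 rose in DFMO RNA, with a summed level of 3894 to 5587 CPM against 1605 to 3183 CPM in controls, and 7 rose and 1 fell in footprints. Among 12 adrenergic neuroblast markers 6 rose in RNA under DFMO, at 1121 to 1507 CPM against 344 to 859 CPM, while in footprints 1 of 11 tested, Insm1, fell. Endothelial markers fell in DFMO footprints, 5 of 10, at 50.3 to 146 CPM against 149 to 246 CPM in controls, and macrophage markers, 7 of 10, at 277 to 357 CPM against 390 to 514 CPM. Fibroblast and pericyte markers overlapped between DFMO and control, at 1020 to 2226 CPM and 1292 to 2796 CPM in footprints, where 2 of 10 rose and 1 fell. Lum, a collagen-binding proteoglycan, rose by 1.96 ± 0.57 (edgeR adjusted p = 0.0232) and the smooth muscle actin Acta2 by 0.57 ± 0.16 (edgeR adjusted p = 0.0193). In RNA 3 of 10 rose and 1 fell, with Dcn, a proteoglycan of fibroblasts, up by 3.15 ± 0.53 (edgeR adjusted p = 0.000335) and Acta2 lower by -2.05 ± 0.33 (edgeR adjusted p = 0.000278). The perineurial and endoneurial list was high in combination footprints, at 186 to 288 CPM against 38.3 to 63.6 CPM in controls, nearly all of it Etv1 at 159 to 268 CPM, a factor that neurons make too. Under DFMO the footprint sum was 36.0 to 249 CPM, with Etv1 up by 2.55 ± 0.72 (edgeR adjusted p = 0.0237). The DFMO RNA sum was 10.2 to 10.9 CPM against 3.48 to 7.06 CPM in controls, without overlap, and 2 of 5 rose, the integrin Itgb4 by 4.15 ± 0.67 (edgeR adjusted p = 0.000288) and Sox9, also on the neural crest list, by 2.21 ± 0.87 (edgeR adjusted p = 0.0473). The epithelial list summed to 2.67 to 9.16 CPM in DFMO footprints and 4.53 to 24.3 CPM in controls. The part of these cell types in the levels of the 8 genes was not tested.

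By the Pearson correlation of log2 CPM over the 19 RNA libraries, the genes most like Sox10 outside the 8 were Klk6 (r = 0.968), Wfdc1 (r = 0.959), Fgf10 (r = 0.959), BC067074 (r = 0.957) and Cyp2j9 (r = 0.956). In footprints, where Sox10 did not pass the filter, the genes most like Erbb3 over 20 libraries were Mtmr9 (r = 0.912), Apba1 (r = 0.898), Gyg (r = 0.894), Ahr (r = 0.893) and Wdr19 (r = 0.891). These values describe libraries that share their treatments and depths.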

How the data were processed

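Tumors of 20 mice gave 20 footprint and 19 RNA libraries, grouped by their titles. Per the labels, extracts were digested with RNase I, monosomes were collected on columns, and total RNA came from the same extracts, so that a mouse number pairs its libraries. Per the submitters' processing notes, reads were handled with cutadapt, Bowtie2 and HISAT2 on GRCm38; their versions and the counting tool: not given in the sources used here. The authors deposited counts per transcript, used for all tests, and RPKM values, used for the order of levels. Strand use in counting is not stated. No column was left over (0), and 1977 of 20333 transcripts had no count.

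Tests ran under R 4.3.3 and used edgeR 4.0.16 (robust quasi-likelihood F test, TMM scaling, filterByExpr, all groups of an assay in one fit), with Benjamini-Hochberg adjustment over all genes tested and calls at an adjusted p of 0.05. For efficiency, a model of all 39 libraries tested whether the group effect differs by assay. CPM use the TMM-adjusted total, and log2 CPM a prior count of 2. Counting intervals are exact at 95%, and a count of 0 was allowed 3 counts; both cover counting error only. Correlations used 100000 permutations. Exact intervals came from R 4.3.3. Drawings came from matplotlib 3.10.9, permutations from numpy 2.4.6, ranks and the adjustment of correlations from scipy 1.17.1 and tables from pandas 2.3.3, run by Python 3.11.15.

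The 8 genes, the lists of other markers, the tests and the groups of doubtful libraries were chosen with earlier results of these data known. From each other list, up to 2 genes with the smallest p among those called could be named in DFMO and in combination against control, per assay; lists of other cell types are given mostly as counts and sums, and some genes are not reported here. Erbb2, Fxyd1 and markers listed at or near 0 were named after their values were seen. Alternatives were RLE scaling, no filter, DESeq2 1.42.0, leaving out each mouse, leaving out the 4 RNA libraries with under 14000 transcripts, or the RNA of DFMO mice CD_DFMO_135 and CD_DFMO_5823 and combination mouse Proargdrop_DFMO_5732, footprints thinned to 2137838 counts, and the 38 libraries of mice with both assays without and with the mouse as a block. The pairing by mouse comes from the protocol; across genes, departures of RNA and own footprints from their assay means correlated from -0.07 to 0.73. Replicates are separate mice. The tests were tried on simulated counts with known changes between DFMO and control. Footprints (11964 genes) recovered 76.8% of 2-fold and 93.9% of 4-fold changes, RNA (14091 genes) 10.1% and 79.8%, and efficiency (11671 genes) 10.1% and 69.1%.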

Additional observations from a re-analysis of the deposited data

Results flagged for a closer look

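Within groups of 4 or 5 mice, 12 of 59 sets of values of 1 gene held a mouse that stood apart, with a gap to the nearest other mouse above the 95% limit of Dixon's test; chance alone gives about 1 in 20 groups, a rate that does not hold for sparse counts. In 6 of the 12 a single mouse had any count in its group, from 1 to 8 counts, which places it above that limit by construction. These are S100b footprints in diet mouse Proargdrop_5828 (0.146 CPM), Gfap footprints in control mouse CD_5778 (0.216 CPM) and diet mouse Proargdrop_5828 (0.146 CPM), Sox10 RNA in control mouse CD_5812 (0.029 CPM) and Gfap RNA in diet mouse Proargdrop_5784 (0.189 CPM). The last is Erbb3 RNA in control mouse CD_5812 (0.116 CPM, 4 counts), the complex control library.

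Combination mouse Proargdrop_DFMO_5736 stood above its group for 3 genes in RNA, Sox10 at 0.532 CPM against 0.216 CPM in the next mouse, Fabp7 at 4.23 against 1.90 CPM and Apod at 33.7 against 19.9 CPM. Its footprints were also the highest of the combination for Sox10, Fabp7 and Apod. The last 3 are low-complexity libraries, with S100b RNA at 15.6 CPM in control mouse CD_5781 against 2.33 CPM in the next, Apod RNA at 3.01 CPM in control mouse CD_5778 and Fabp7 RNA at 8.44 CPM in diet mouse Proargdrop_5828 against 1.38 CPM in the next.

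The effect of DFMO on RNA differed between the diets by the interaction for Sox10 (-5.52 on the log2 scale), Fabp7 (-5.22), Gfap (-8.71) and Apod (-5.69). Of these, Sox10 and Gfap passed the filter through the DFMO libraries.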

How the results depend on the processing

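Under RLE scaling each count of called genes among the 8 stayed within 1.5 times its value. Without the filter on low counts, footprints gave 6 called genes for DFMO against control and 2 for combination against DFMO, and efficiency gave 3 for DFMO and 1 for the combination. DESeq2 called 2 genes for diet against control in RNA and 2 in efficiency for the combination. Footprints thinned to the shallowest library kept only Apod testable; DFMO against control then gave 1, combination against control, diet and DFMO gave 0 each, and efficiency in the combination gave 1. Without the 4 low-complexity RNA libraries the counts were 0 for diet against control, 2 for combination against control and 0 for efficiency under DFMO. Without the RNA of CD_DFMO_135, CD_DFMO_5823 and Proargdrop_DFMO_5732 they were 0 for diet against control, 1 for combination against diet, 2 for combination against DFMO and 1 for the interaction. Efficiency under DFMO gave 0 in the 38 libraries with no mouse term, and the replicate block by mouse gave 1, 0 and 0 calls for DFMO, diet and combination, as without it in 39 libraries. Groups within an assay share no mouse, so no other pairing could be made.

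With 1 mouse left out at a time, called genes in footprints numbered 3 to 4 for DFMO, 0 for the diet, 0 to 1 for the combination, 1 for combination against diet, 0 to 1 against DFMO and 0 for the interaction. In RNA they numbered 7 to 8, 0 to 3, 4 to 5, 1 to 3, 5 to 6 and 3 to 5 in that order, and in efficiency 0 to 2, 0 to 1 and 0 to 1.

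Changes that turned direction were all uncalled. Apod footprints in combination against diet went to -0.036 when thinned. Fabp7 RNA on the diet went to -0.98 and the S100b RNA interaction to -0.20 without the low-complexity libraries. Foxd3 RNA on the diet went to -0.026 with DESeq2. Fabp7 efficiency on the diet went to -0.38 with DESeq2, -0.24 in 38 libraries and -0.13 with the replicate block. With 1 mouse left out, ranges that span 0 were -0.60 to 0.10 for Erbb3 footprints in combination against DFMO, -0.15 to 0.61 for their interaction, -0.73 to 1.01 for Fabp7 RNA on the diet, -0.26 to 1.45 in combination against diet, -0.095 to 2.13 for the S100b RNA interaction and -0.51 to 1.20 for Fabp7 efficiency on the diet.

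Footprint and RNA levels across mice correlated less once group means were removed, for all genes but S100b. The r was then -0.061 for Sox10, -0.26 for Foxd3, -0.20 for Gfap and -0.18 for Erbb3. It was 0.10 for Fabp7, 0.43 for Apod and 0.14 for Cdh19. S100b changed sign, from r = -0.20 with group means left in to 0.19. With group means left in, r was 0.031 for S100b and 0.51 for Foxd3 without the mice of low-complexity RNA. It was 0.43 for Sox10 with a prior count of 0.5, also with group means left in. Values with group means left in are pooled over treatments and do not show agreement within a group. The cause of these changes was not tested.

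Depth limits the footprints, where 5 of the 8 genes had 18 to 229 counts in all 20 libraries. The single complex control library limits each RNA fold change against control.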
